A study of Mus musculus with 10 samples.

Results

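A set of 8 genes that restrain cell division and are linked to FOXO transcription factors were followed in mouse liver and liver tumours by RNA sequencing. They were chosen by name and are Gadd45a, Gadd45b, Gadd45g, Ccng1, Ccng2, Btg1, Btg2 and Klf6, that is 8 of the 16697 gene entries in the deposited table. All 8 are in the table and all 8 passed the filter on low values. Normal liver gave 4 libraries (NL). Another 3 came from tumours induced with the c-MYC oncogene alone (c-MYC), and 3 from tumours that carried FOXO1AAA as well (c-MYC/FOXO1AAA). For both tumour groups plasmids were injected hydrodynamically, that is fast and in a large volume into the tail vein, so that hepatocytes took them up. A Sleeping Beauty transposase then inserts the plasmids into the hepatocyte genome, so only cells that took up plasmid carry the transgenes. FOXO1AAA is a Myc-tagged FOXO1 whose AKT sites were mutated, and it was expressed from the EF1α promoter, which is active in most cell types. By the methods of the study, the c-MYC tumours carried the empty pT3-EF1α vector in place of FOXO1AAA, while elsewhere the study describes these controls as c-MYC/MCL1 with empty vector. The labels give the strain as C57BL/6 and the genotype as WT, whereas the methods give FVB/N mice. Ages were not given. The methods count the RNA samples by mice and normal livers, in the same numbers as the libraries.

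FOXO factors enter the nucleus when AKT signalling is low and switch on genes that stop the cell cycle, repair DNA and adapt metabolism. In liver they are best known as the switch between the fed and the fasted state, since insulin acts through AKT. Among the 8 genes, the GADD45 proteins are small stress sensors that bind PCNA, CDK1 and the kinase MEKK4. Cyclin G1 and cyclin G2 are unconventional cyclins, the first a p53 target that recruits PP2A to MDM2, the second a classical FOXO target. BTG1 and BTG2 are antiproliferative adaptors that bring the CCR4-NOT deadenylase to mRNAs, and KLF6 is a zinc-finger factor known as a liver tumour suppressor and injury-response gene.

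Reads in listed genes ranged from 13.1 to 17.0 M (M, mega) in NL, from 14.2 to 15 M in the c-MYC group and from 13.5 to 20.6 M with FOXO1AAA. Foxo1 itself, with which endogenous and injected sequences are counted together where they match, stood at 5.63 FPKM in c-MYC and 83.1 FPKM in c-MYC/FOXO1AAA (log2 fold change 3.88, SE 0.14, limma adjusted p = 3.4e-08). Of the other FOXO factors, Foxo4 fell by 1.17 on the log2 scale (adjusted p = 0.00389). FPKM are fragment counts divided by gene length and by library size, here an effective size that was recovered from the values. In NL it was 0.649 to 0.684 times the reads in listed genes. The factor was 1.256 to 1.295 in c-MYC and 1.454 to 1.502 in c-MYC/FOXO1AAA. Levels and fold changes between groups depend on this scaling. The table's Myc entry went the other way in c-MYC, at 0.771 FPKM against 11.2 FPKM in NL, and therefore did not show the injected c-MYC. Summed FPKM of 10 hepatocyte markers, such as Alb and Apoa1, ranged from 93900 to 107000 in NL, from 5520 to 8740 in c-MYC and from 1290 to 2410 in c-MYC/FOXO1AAA. The sum of 10 proliferation markers ranged from 11.1 to 39.6 in NL, from 384 to 439 in c-MYC and from 276 to 333 in c-MYC/FOXO1AAA. A lower level in such bulk samples cannot be told apart from fewer cells that express the gene.

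A gene was called when limma's treat, a moderated test against a 1.5-fold change, gave a Benjamini-Hochberg adjusted p under 0.05 over 14017 genes. The first comparison asked how the 8 genes stood in c-MYC tumours relative to normal liver. In c-MYC against NL, 3 of the 8 were called higher (Gadd45b, Klf6 and Ccng1), 2 lower (Gadd45g and Ccng2) and 3 in neither direction (Gadd45a, Btg1 and Btg2). Over all tested genes, 48.1% were called in this comparison, 24.5% higher and 23.6% lower. The median log2 fold change was 0.53 over the 8 genes and 0.08 over all tested genes. With libraries rescaled to the same FPKM total, which moved the median of all genes to 1.01, the counts were 6 higher (Gadd45a, Btg1 and Btg2 joining) and 1 lower (Gadd45g). Of all 14017 tested genes, 7061 were then higher and 1895 lower. The second comparison asked what FOXO1AAA changed within c-MYC tumours. In c-MYC/FOXO1AAA against c-MYC, 4 of the 8 were called higher (Gadd45g, Gadd45a, Ccng2 and Btg2) and none of the 8 lower by limma, at an unadjusted p under 0.05 also none. All 3 c-MYC/FOXO1AAA libraries were nevertheless below all c-MYC libraries for Gadd45b. The background here was 28.7% called, of which 15.9% of all genes were higher and 12.7% lower. The median log2 fold change was 1.59 over the 8 genes and 0.03 over all tested genes. Both comparisons use the same c-MYC libraries, so their changes are not independent.

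Against NL, c-MYC/FOXO1AAA had 5 of the 8 called higher (Gadd45a, Klf6, Gadd45b, Btg2 and Ccng1) and none of the 8 lower by limma, at an unadjusted p under 0.05 also none. The background was 57.8% called, 31.2% higher and 26.6% lower. The median log2 fold change was 1.9 over the 8 genes and 0.21 over all tested genes. Groups without overlap were common throughout. They occurred for 6 of the 8 genes in each comparison. Between c-MYC and NL, where 4 of these were higher and 2 lower, 73.9% of all genes had separate groups, 39% higher and 34.9% lower. Between the tumour groups, with 5 higher and 1 lower, it was 63.4% of all genes, 32.7% higher and 30.7% lower. Between c-MYC/FOXO1AAA and NL, with 6 higher, it was 80.1%, of which 44.1% of all genes were higher and 36% lower.

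**Figure D1:**
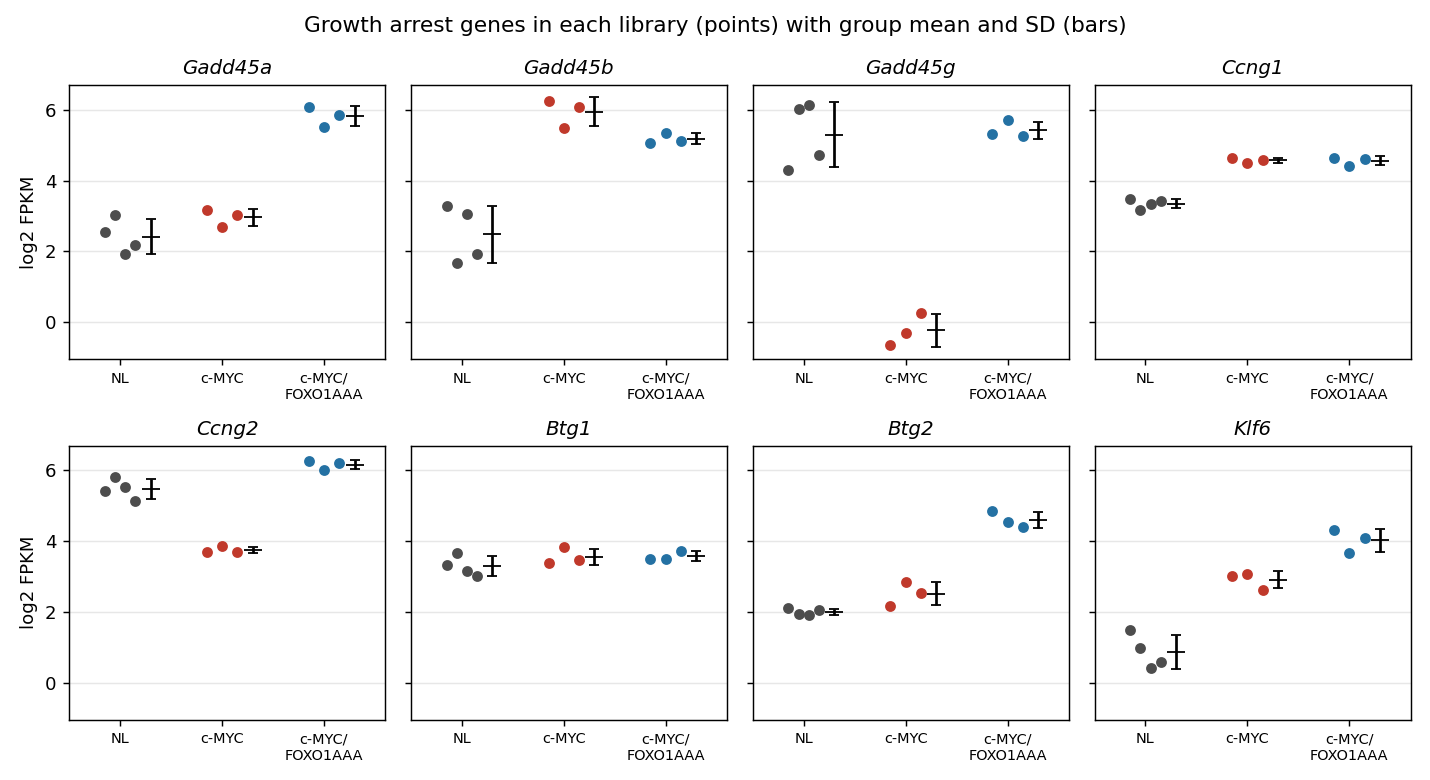
Level of the 8 growth arrest genes (vertical axis, log2 FPKM) in each library of NL (grey), c-MYC (red) and c-MYC/FOXO1AAA (blue), 1 point a library, with bars for the group mean and SD. Gadd45g drops to between 0.642 and 1.21 FPKM in c-MYC while Gadd45b climbs to between 44.8 and 76.9 FPKM, and Btg1 stays between 8.16 and 14.2 FPKM in all 10 libraries.

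The promoters of 3 of these genes are printed because they set the pair called lower in c-MYC and higher with FOXO1AAA (Gadd45g and Ccng2) beside a gene called in no comparison (Btg1). Each runs 5′ to 3′ on the gene's strand, from 250 bases before to 50 after the RefSeq start site on GRCm38.p6. Capitals mark a FOXO core (GTAAACA or its reverse complement TGTTTAC), an insulin response core (CAAAACA or TGTTTTG) or an E-box (CACGTG, the palindrome bound by MYC with MAX). The insulin response core was added to the search after the promoters had been looked at.
Gadd45g, chr13:51846425-51846724, plus strand: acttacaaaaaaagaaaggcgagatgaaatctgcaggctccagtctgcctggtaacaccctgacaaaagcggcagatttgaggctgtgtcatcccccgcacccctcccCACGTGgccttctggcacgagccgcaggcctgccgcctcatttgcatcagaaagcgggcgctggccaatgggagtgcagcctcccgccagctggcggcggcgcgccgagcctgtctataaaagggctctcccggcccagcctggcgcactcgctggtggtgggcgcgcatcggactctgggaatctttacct
Ccng2, chr5:93267323-93267622, plus strand: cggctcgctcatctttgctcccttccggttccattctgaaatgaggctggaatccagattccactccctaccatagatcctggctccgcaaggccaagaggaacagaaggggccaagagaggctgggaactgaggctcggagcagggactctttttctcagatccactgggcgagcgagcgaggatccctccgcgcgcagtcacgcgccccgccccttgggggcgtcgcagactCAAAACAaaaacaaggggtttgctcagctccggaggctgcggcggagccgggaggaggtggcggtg
Btg1, chr10:96616751-96617050, plus strand: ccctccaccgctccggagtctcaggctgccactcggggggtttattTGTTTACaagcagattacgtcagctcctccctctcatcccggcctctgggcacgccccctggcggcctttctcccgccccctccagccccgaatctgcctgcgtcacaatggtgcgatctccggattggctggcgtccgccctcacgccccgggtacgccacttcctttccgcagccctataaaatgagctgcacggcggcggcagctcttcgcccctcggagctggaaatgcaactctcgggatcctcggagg

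All 8 promoters were matched by symbol, and both strands were searched. The FOXO core occurred in 1 of the 8, at base -204 of Btg1, and in 3.65% of the 32851 RefSeq promoters of this length. The gene that holds it did not pass the test in any comparison. A variant core, ATAAACA or TGTTTAT, found in 4.6% of all promoters, occurred in none of the 8. Only Ccng2 of the 8 held the insulin response core, 16 bases before its RefSeq start, where 6.28% of all promoters hold it. In GENCODE M21, Ccng2 begins earlier, at chr5:93267257. The 300 bases printed for it, core included, thus lie within the GENCODE gene. E-boxes occurred in 3 of the 8, against 7.15% of all promoters. The 8 promoters had a GC content of 55.7% to 72.0%, above the median of 52.7% over all promoters, so this background, for letters that include a CpG, is not matched to them. Besides the one in Gadd45g, they lay in the promoters of the 2 genes below, each shown with its flanks.
Klf6, E-box at chr13:5861446-5861451: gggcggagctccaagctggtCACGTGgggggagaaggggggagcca
Gadd45b, E-box at chr10:80929906-80929911: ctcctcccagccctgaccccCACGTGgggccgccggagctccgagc
The 3 genes with an E-box did not move alike, since Gadd45b and Klf6 were called higher in c-MYC than in NL and Gadd45g was called lower. Gadd45a, Ccng1 and Btg2 held none of these letters within the 300 bases, which says nothing about more distant sequence.

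Of the GADD45 stress sensors, Gadd45g (chr13:51846678-51848468, plus strand, GRCm38) moved most. It is a gene induced by cytokines and known to be lost in many tumours. It stood at 19.5, 65.5, 69.3 and 26.6 FPKM in the 4 NL libraries, at 0.642, 0.814 and 1.21 FPKM in c-MYC and at 39.5, 52.0 and 38.1 FPKM in c-MYC/FOXO1AAA. The c-MYC libraries lay far below all others, on 8 to 17 reads each, while the NL and c-MYC/FOXO1AAA ranges overlapped. Its log2 fold change was -5.51 (SE 0.43, adjusted p = 2.7e-06) from NL to c-MYC, and 5.64 (SE 0.46, adjusted p = 7.48e-06) from c-MYC to c-MYC/FOXO1AAA. These fits are damped by the count of 2 that the authors added before the logarithm. Without it the ratios of mean FPKM were 60.1-fold and 57.4-fold, against 45.7-fold and 49.9-fold from the fits. The fits average log2 values, so the added count is not the only source of this gap. Against NL, c-MYC/FOXO1AAA showed a log2 difference of 0.13 (95% interval from -0.83 to 1.08, adjusted p = 1), an interval that spans changes past the 1.5-fold threshold on both sides.

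Gadd45a (chr6:67035096-67037457, minus strand), the p53- and FOXO-responsive member of the family, separated from Gadd45g in the first comparison. It stood at 5.87, 8.16, 3.78 and 4.56 FPKM in NL, at 8.96, 6.48 and 8.15 FPKM in c-MYC and at 68.2, 45.9 and 57.5 FPKM in c-MYC/FOXO1AAA. NL and c-MYC overlapped, and every c-MYC/FOXO1AAA library lay above both. The log2 fold change was 0.54 (SE 0.25, adjusted p = 0.82) in c-MYC versus NL. With FOXO1AAA it rose by 2.86 over c-MYC (SE 0.26, adjusted p = 3.15e-05) and by 3.4 over NL (SE 0.25, adjusted p = 1.22e-06). A noncoding gene on the opposite strand, E230016M11Rik, overlaps it, and the strand setting of the counting was not given in the sources used here.

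Gadd45b (chr10:80930073-80932204, plus strand) is induced by NF-κB and TGF-β signalling and in regenerating liver. Its levels were 9.68, 3.2, 8.42 and 3.82 FPKM in NL, 76.9, 44.8 and 67.5 FPKM in c-MYC and 33.5, 40.7 and 35.1 FPKM in c-MYC/FOXO1AAA. The order was NL lowest, c-MYC/FOXO1AAA next and c-MYC highest, with no overlap between groups. Relative to NL, Gadd45b rose by 3.45 log2 units in c-MYC (SE 0.37, adjusted p = 4.33e-05) and by 2.69 with FOXO1AAA added (SE 0.37, adjusted p = 0.000283). The difference between the tumour groups was -0.76 (95% interval from -1.64 to 0.13, adjusted p = 0.746) and did not pass the test.

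Because the 3 GADD45 genes went separate ways, the make-up of the family differed between groups. Of the summed FPKM of the family, Gadd45g took 75.5% ± 13.9 (SD, n = 4) in normal liver but 1.29% ± 0.477 (SD, n = 3) of it in c-MYC. There Gadd45b made up 87.6% ± 1.47 (SD, n = 3). In c-MYC/FOXO1AAA the shares were 41.8% ± 7.81 for Gadd45a, 31.6% ± 5.19 for Gadd45g and 26.6% ± 2.82 for Gadd45b (SD, n = 3). The summed level was 57.1 ± 25.6 FPKM in NL, 71.8 ± 17.8 FPKM in c-MYC and 137 ± 5.53 FPKM in c-MYC/FOXO1AAA. Its lowest c-MYC/FOXO1AAA library, at 131 FPKM, lay above the highest of the other 7 libraries, at 86.5 FPKM. Shares were not tested apart from the ratios given further on.

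**Figure D2:**
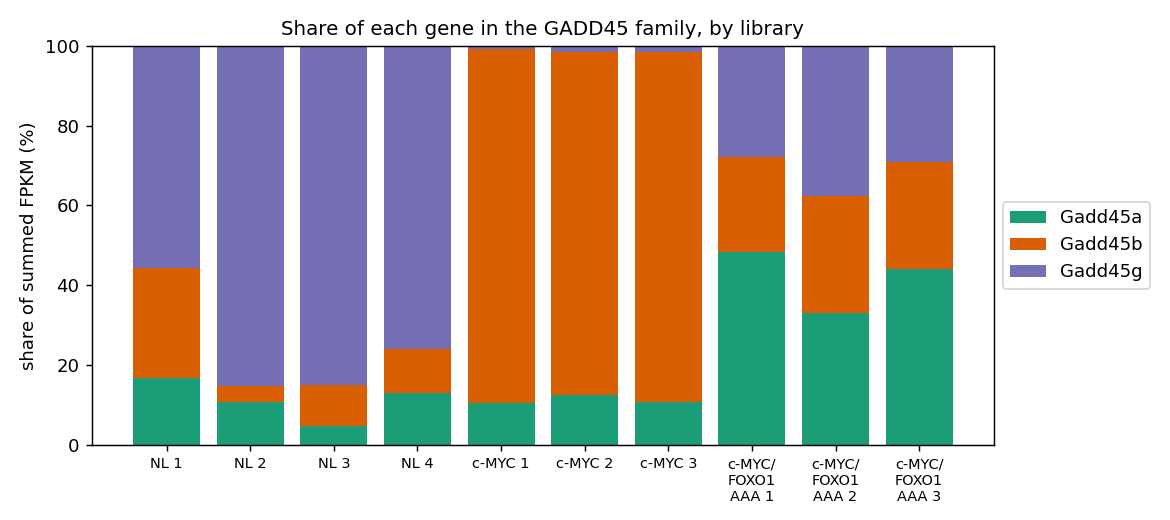
Share of each gene in the summed FPKM of the GADD45 family (vertical axis, percent) for each of the 10 libraries, with Gadd45a in green, Gadd45b in orange and Gadd45g in purple. Gadd45g fills between 55.7% and 85.2% of the NL bars, Gadd45b between 86.0% and 88.9% of the c-MYC bars, and no gene exceeds 48.3% in c-MYC/FOXO1AAA.

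The G-type cyclins also parted. Ccng2 (chr5:93267257-93276231, plus strand), whose product holds cells out of cycle and is high in quiescent cells, stood at 43.1, 56.9, 46.1 and 35.2 FPKM in NL. It stood at 13, 14.6 and 13 FPKM in c-MYC and at 77.8, 64.8 and 73.7 FPKM in c-MYC/FOXO1AAA. All 3 groups were separate, with c-MYC lowest and c-MYC/FOXO1AAA highest. Relative to NL, Ccng2 fell by 1.73 log2 units in c-MYC (SE 0.15, adjusted p = 3.14e-05). With FOXO1AAA it rose by 2.42 over c-MYC (SE 0.16, adjusted p = 3.39e-06). The difference from NL was then 0.69 (95% interval from 0.36 to 1.01, adjusted p = 0.369) and did not pass the test. Its interval lay above 0 but reached below the 1.5-fold threshold.

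Ccng1 (chr11:40748552-40755311, minus strand) stood at 11.1, 8.97, 10 and 10.7 FPKM in NL, at 24.8, 22.7 and 23.8 FPKM in c-MYC and at 25.1, 21.3 and 24.4 FPKM in c-MYC/FOXO1AAA. The tumour groups overlapped and both lay above NL. Relative to NL it rose by 1.22 with c-MYC (SE 0.1, adjusted p = 0.00019) and by 1.21 with FOXO1AAA added (SE 0.1, adjusted p = 0.000163). Both calls were lost when the threshold was set at 2-fold. The log2 difference between the tumour groups was -0.01, with a 95% interval from -0.26 to 0.23.

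In the antiproliferative BTG pair, Btg2 was raised with FOXO1AAA and Btg1 was called in no comparison. Btg2 (chr1:134075170-134079120, minus strand), an early-response gene under p53 control, stood at 4.33, 3.87, 3.81 and 4.15 FPKM in NL. It was at 4.55, 7.24 and 5.78 FPKM in c-MYC and at 29.0, 23.2 and 21.2 FPKM in c-MYC/FOXO1AAA. The c-MYC libraries lay just above NL, and c-MYC/FOXO1AAA lay well above both. The log2 difference between c-MYC and NL was 0.51 (SE 0.17, adjusted p = 0.923), and without the 1.5-fold threshold its adjusted p was 0.0163. With FOXO1AAA, Btg2 rose by 2.08 over c-MYC (SE 0.18, adjusted p = 3.5e-05) and by 2.59 over NL (SE 0.17, adjusted p = 7.13e-07).

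Btg1 (chr10:96617006-96622809, plus strand), known to be high in quiescent lymphocytes, stood at 10, 12.8, 9.01 and 8.16 FPKM in NL, at 10.5, 14.2 and 11 FPKM in c-MYC and at 11.4, 11.2 and 13.4 FPKM in c-MYC/FOXO1AAA. All 3 groups overlapped. The log2 difference was 0.26 (95% interval from -0.11 to 0.63) between c-MYC and NL and 0.02 (95% interval from -0.37 to 0.42) between the tumour groups. It was 0.28 (95% interval from -0.09 to 0.65) between c-MYC/FOXO1AAA and NL.

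Klf6 (chr13:5861482-5870394, plus strand) was, like Btg2, lowest in NL, intermediate in c-MYC and highest in c-MYC/FOXO1AAA. It stood at 2.81, 1.99, 1.36 and 1.5 FPKM in NL, at 8.15, 8.43 and 6.25 FPKM in c-MYC and at 20, 12.7 and 17.0 FPKM in c-MYC/FOXO1AAA, with no overlap between groups. Over NL, Klf6 rose by 2.04 in c-MYC (SE 0.26, adjusted p = 0.00031) and by 3.15 with FOXO1AAA added (SE 0.26, adjusted p = 3.01e-06). The step between the tumour groups was 1.11 (95% interval from 0.51 to 1.71, adjusted p = 0.123) and did not pass the test. It passed without the fold threshold (adjusted p = 0.00512) and after rescaling to an equal FPKM total (adjusted p = 0.0436).

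**Figure D3:**
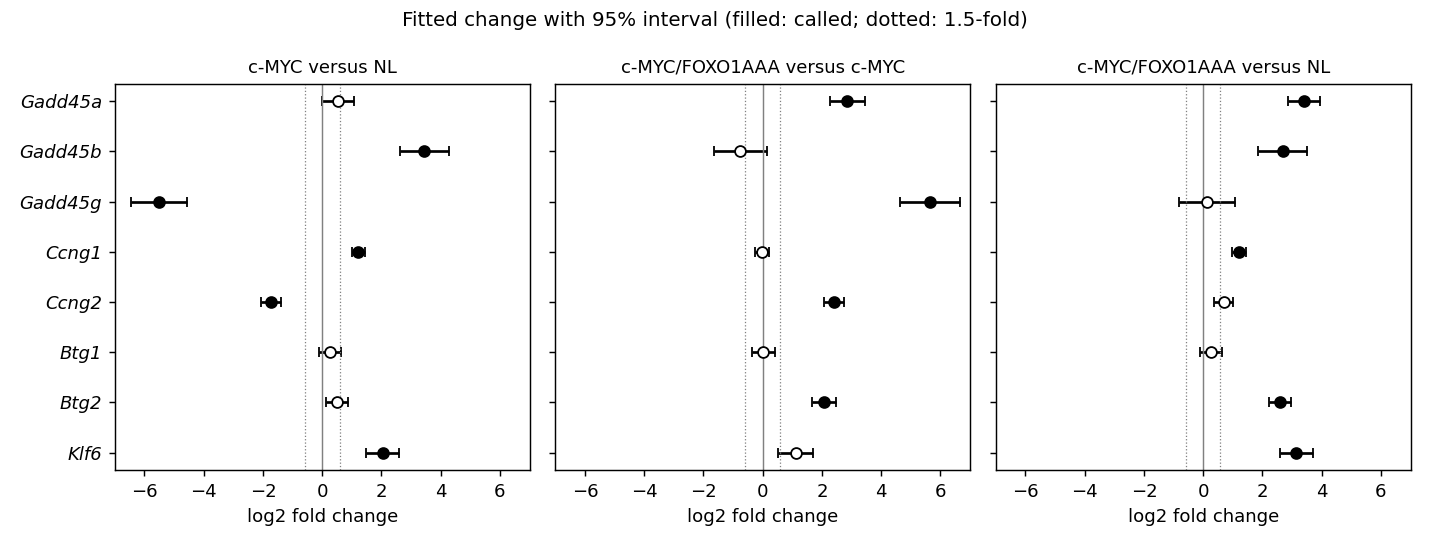
Fitted log2 fold change of the 8 genes with its 95% interval (horizontal axis) in the 3 comparisons, with filled points for called genes and dotted lines at 1.5-fold. Gadd45g lies at -5.51 and Ccng2 at -1.73 in the left panel, and they lie at 5.64 and 2.42 in the middle panel, where Ccng1 and Btg1 sit at -0.01 and 0.02.

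In ratios of related genes within a library the scaling factor cancels, except through the count the authors added, which was scaled by library. It weighs most on Gadd45g in c-MYC, where 2.17 to 2.23 reads were added to 8 to 17. Between the groups, 5 such ratios were compared by 2-sided exact permutation tests (15 tests). The smallest p possible is 0.0286 for 3 against 4 libraries and 0.1 for 3 against 3, so the comparison of the tumour groups could not reach 0.05. The log2 ratio of Ccng2 to Ccng1 averaged 2.13 ± 0.41 over the 4 NL libraries, -0.82 ± 0.16 over the 3 c-MYC libraries and 1.61 ± 0.02 over the 3 c-MYC/FOXO1AAA libraries (± SD, here and in the next ratios). The difference of -2.95 between c-MYC and NL had an exact p of 0.0286 (adjusted 0.0715), and that of 2.43 between the tumour groups had the smallest possible, 0.1 (adjusted 0.115). The positive sign in NL and c-MYC/FOXO1AAA depends on the transcript length behind Ccng2, described further on, and the differences do not. With the longest coding transcript, mean Ccng2 lay below mean Ccng1 in every group. The levels were 5.77 against 10.2 FPKM in NL and 1.72 against 23.8 FPKM in c-MYC. In c-MYC/FOXO1AAA they were 9.18 against 23.6 FPKM.

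For Btg2 to Btg1 the log2 ratio averaged -1.29 ± 0.32 over the NL libraries, -1.03 ± 0.15 over the c-MYC libraries and 1.02 ± 0.34 over the libraries with FOXO1AAA. The first 2 groups overlapped (difference 0.25, exact p = 0.143, adjusted 0.153), and c-MYC/FOXO1AAA lay above NL by 2.31 (exact p = 0.0286, adjusted 0.0715). Gadd45a to Gadd45b averaged -0.07 ± 1.11 over the NL libraries, -2.98 ± 0.17 over the c-MYC libraries and 0.64 ± 0.43 over the libraries with FOXO1AAA. There the c-MYC libraries stood apart, while c-MYC/FOXO1AAA and NL overlapped (difference 0.7, exact p = 0.371). Gadd45g to Gadd45a differed by -6.05 between c-MYC and NL (exact p = 0.0286, adjusted 0.0715), and by -3.27 between c-MYC/FOXO1AAA and NL at the same exact p. Gadd45g to Gadd45b differed by -8.96 between c-MYC and NL at the same exact p of 0.0286. No ratio passed an adjusted p of 0.05.

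**Figure D4:**
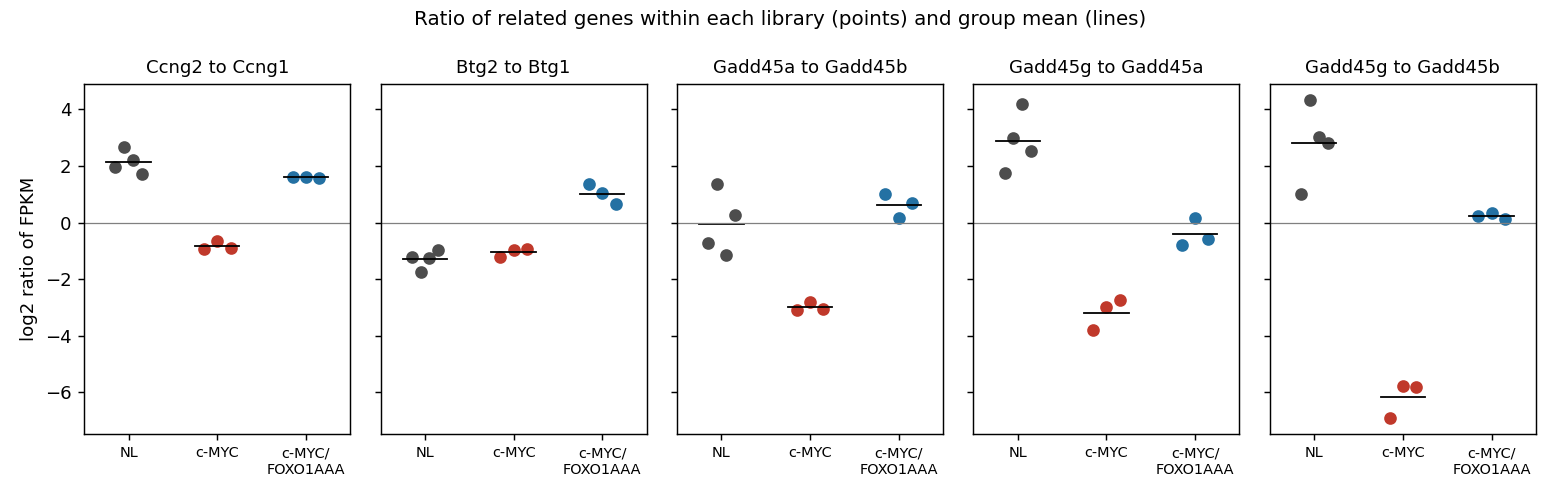
Log2 ratio of FPKM between related genes (vertical axis) in each library, 1 point a library, with lines at the group means and 1 panel a ratio. The c-MYC libraries lie lowest for Ccng2 to Ccng1 (mean -0.82) and for the 3 GADD45 ratios, whereas for Btg2 to Btg1 they lie at -1.03 beside NL at -1.29.

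Levels can be compared between genes only per length, and the length the authors used was recovered from the values. For 5 of the 8 genes it was that of the longest coding transcript in GENCODE M21. For Ccng2 it was 358 bp, the length of a processed transcript, whereas the longest coding transcript has 2810 bp, 7.85 times as long. For Gadd45b it was 732 bp against 1284 bp, and for Gadd45g 863 bp, a retained-intron transcript, against 1071 bp. On the deposited scale Ccng2 was the highest of the 8 in c-MYC/FOXO1AAA at 72.1 ± 6.65 FPKM (SD, n = 3). With the coding transcript it was the lowest, at 9.18 ± 0.847 FPKM. In NL it moved from 45.3 ± 9.0 to 5.77 ± 1.15 FPKM (SD, n = 4), and in c-MYC from 13.5 to 1.72 FPKM. A common length cancels in a comparison of groups, so no fold change is affected. Within the GADD45 family, coding transcripts gave Gadd45a 50.6% ± 8.24 of the sum in c-MYC/FOXO1AAA and Gadd45b 80.4% ± 2.07 in c-MYC (SD, n = 3). The family sum then was 45.6 ± 20.8 FPKM in NL and 44.5 ± 10.7 FPKM in c-MYC, in the opposite order to the deposited scale and within the spread on both.

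On the coding-transcript scale the order in NL ran from Gadd45g at 36.5 ± 20.8 FPKM (SD, n = 4) through Ccng1 at 10.2 and Btg1 at 10 down to Klf6 at 1.92 FPKM. In c-MYC it ran from Gadd45b at 35.9 ± 9.42 FPKM (SD, n = 3) and Ccng1 at 23.8 ± 1.05 FPKM down to Ccng2 at 1.72 and Gadd45g at 0.716 FPKM. In c-MYC/FOXO1AAA, Gadd45a led at 57.2 ± 11.1 FPKM (SD, n = 3), followed by Gadd45g at 34.8 ± 6.17, Btg2 at 24.5 ± 4.04, Ccng1 at 23.6 ± 2.05 and Gadd45b at 20.8 ± 2.16 FPKM. The neighbours Btg2, Ccng1 and Gadd45b lay within their spreads of each other, as did Ccng1 and Btg1 in NL.

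**Figure D5:**
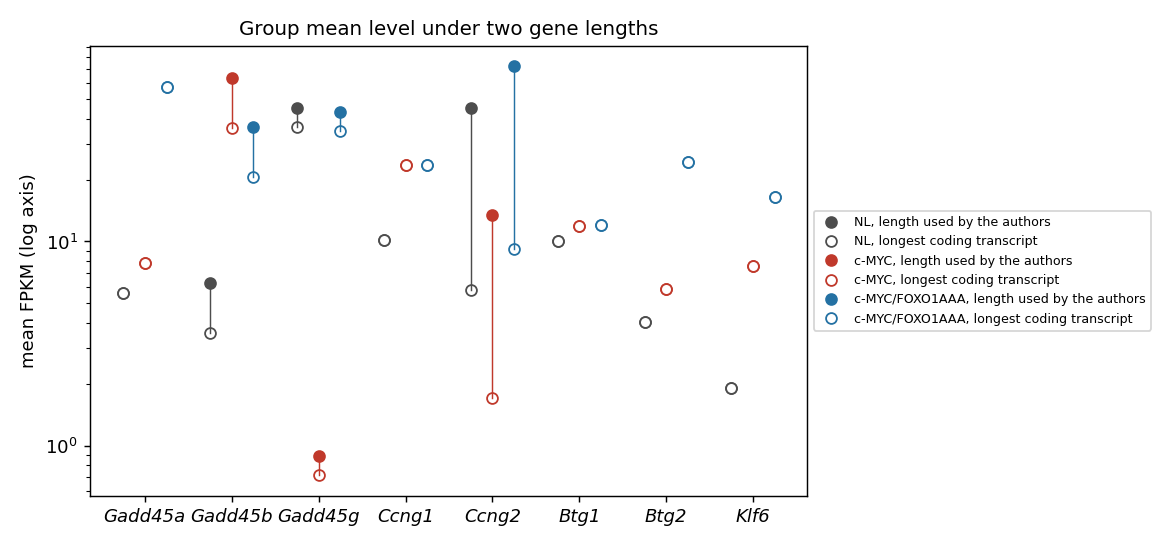
Group mean level of the 8 genes (vertical axis, FPKM, log axis) with the gene length used by the authors (filled) and with the longest coding transcript (open), joined by a line and covering each other where both lengths are equal. Ccng2 drops by 7.85 times in every group, Gadd45b by 1.75 times and Gadd45g by 1.24 times, and the other 5 genes do not move.

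Other genes of the same pathways were counted from lists of their names. For scale, 15.9% of all tested genes were called higher and 12.7% lower between the tumour groups. In c-MYC versus NL the shares were 24.5% and 23.6%. Of 3 tested relatives in the BTG/TOB family, none was called between the tumour groups by limma, and 1 was lower at an unadjusted p under 0.05. In c-MYC versus NL, Btg3 was higher (log2 fold change 3.22, adjusted p = 3.68e-05) and Tob1 lower (-1.36, adjusted p = 0.000115), both named after their values were seen. A list of 12 genes covered the CCR4-NOT deadenylase, the partner of BTG proteins, and Pabpc1, which is not a subunit of it. None of the 12 was called between the tumour groups by limma, also at an unadjusted p under 0.05. In c-MYC versus NL 5 of them were higher, Pabpc1 included, and none lower (6 and none unadjusted). With libraries rescaled to the same FPKM total, 10 of the 12 were higher, beside 7061 of all 14017 tested genes. Of 12 partners of GADD45, 1 was higher with FOXO1AAA, the stress kinase gene Mapk8 (1.29, adjusted p = 0.000392), and 2 were lower. These were Map2k3 (-1.59, adjusted p = 1.55e-05), which encodes an activator of the p38 kinase, and Mapk14 (-0.95, adjusted p = 0.024), which encodes p38 itself. None of 11 cyclin G partners was called between the tumour groups by limma, also at an unadjusted p under 0.05.

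Of 13 tested KLF relatives, 2 were higher with FOXO1AAA than in c-MYC and 2 lower. Over all tested genes 15.9% were higher and 12.7% lower, so these counts lay near the background. Klf5 went from 0.292 to 16.0 FPKM (log2 fold change 5.96, SE 0.46, adjusted p = 3.64e-06) and Klf3 rose by 1.1 (adjusted p = 0.0339), while Klf12 fell by 1.94 (adjusted p = 0.00296) and Klf1 fell by 1.67 (adjusted p = 0.0309). Of 9 CDK inhibitors and pocket proteins, 3 were higher and none lower with FOXO1AAA (4 and none at an unadjusted p under 0.05). They were Cdkn2a (3.93, adjusted p = 0.000113), which encodes p16 and ARF, and the retinoblastoma family genes Rb1 (1.71, adjusted p = 0.00161) and Rbl2 (1.36, adjusted p = 0.00106, named after its value was seen). In c-MYC versus NL, 4 of the 9 were higher and 1 lower (7 and 1 with the same FPKM total, beside 7061 and 1895 of 14017 genes). Among the higher were Cdkn1a (p21) at 24.5 against 1.31 FPKM and Cdkn1c (p57) at 120 against 4.43 FPKM. The lower one was Rbl2 (-2.44, adjusted p = 5.94e-07), at 1.52 against 8.26 FPKM. All of these were named after their values were seen. The 10 proliferation markers were called higher than NL in both tumour groups, and none of the 10 was called between the tumour groups by limma, also at an unadjusted p under 0.05. This does not show equal levels. Their median log2 fold change between the tumour groups was -0.42, against 0.03 over all tested genes. Their summed FPKM, from 276 to 333 with FOXO1AAA and from 384 to 439 in c-MYC, did not overlap.

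Of 20 other FOXO target genes, 10 were higher and 5 lower with FOXO1AAA than in c-MYC. The background for this and the next lists was 15.9% higher and 12.7% lower. Pdk4, which blocks pyruvate oxidation in fasting, went from 0.0809 to 22.3 FPKM (log2 fold change 8.35, adjusted p = 2.57e-07), and the ubiquitin ligase gene Fbxo32 rose by 4.19 (adjusted p = 7.03e-05). The insulin receptor substrate gene Irs2 fell by 1.47 (adjusted p = 0.0102) and the catalase gene Cat fell by 1.39 (adjusted p = 0.000252). Of 20 p53 targets, 6 were higher and 2 lower. Plk2 rose by 4.28 (adjusted p = 2.77e-06) and Eda2r by 3.53 (adjusted p = 0.000424), while Perp fell by 2.92 (adjusted p = 0.000225) and Fas fell by 1.11 (adjusted p = 0.0085). Of 10 stress and ATF4 genes, 3 were higher, with Chac1 at 3.04 (adjusted p = 0.026) and Ppp1r15a at 1.3 (adjusted p = 0.0083), and 1 was lower, Xbp1 (-0.95, adjusted p = 0.0309). This balance depended on scaling, with 4 higher and none lower at the same FPKM total and 2 higher and 2 lower at the same median. Of 11 immediate early genes, which like Btg2 and Klf6 respond within minutes to stimuli and to tissue handling, 7 were higher and none lower, and the unadjusted counts were the same. Egr1 rose by 3.67 (adjusted p = 0.000158) and Ier3 by 3.57 (adjusted p = 0.000232). Their summed FPKM ranged from 127 to 151 in NL, from 62.0 to 74.7 in c-MYC and from 211 to 250 in c-MYC/FOXO1AAA, and their part in the results for Btg2, Klf6 and the GADD45 genes was not tested.

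Markers of cell types also differed between the tumour groups, in both directions, whereas Gadd45a, Gadd45g, Ccng2 and Btg2 were all called higher. Over all tested genes 15.9% were called higher and 12.7% lower there. Of 7 tested muscle markers, 6 were higher with FOXO1AAA than without it and none lower, at an unadjusted p under 0.05 also none. The summed FPKM of the muscle list ranged from 2.66 to 3.81 in NL, from 2.17 to 7.16 in c-MYC and from 247 to 304 in c-MYC/FOXO1AAA. Acta1 rose by 9.46 and Myh3 by 8.41 (adjusted p = 2.57e-07 and 2.99e-08). Myod1, Myog and Chrna1, named for their counts, had 0 reads in all NL and c-MYC libraries. Of 8 stellate cell and fibroblast markers, 5 were higher and none lower (7 and none unadjusted), with sums from 82.0 to 103 FPKM in NL, from 15.5 to 48.6 FPKM in c-MYC and from 413 to 442 FPKM in c-MYC/FOXO1AAA. Dcn (5.9) and Pdgfra (4.86) rose most on the log2 scale. Of the hepatocyte markers, 2 were higher with FOXO1AAA (Cyp2e1 at 2.75 and Tat at 2.4) and 6 lower, led by Ttr (-3.36) and Cps1 (-3.15). Of 8 macrophage markers, Clec4f (2.2) was higher, and Timd4 (-3.38) and Cd5l (-2.64) were lower. Of 7 endothelial markers, Cdh5 (2.49) was higher and none lower, but 2 were lower with quantile normalization. Of 3 lymphocyte markers, Cd79a (5.42) was higher and Cd4 (-1.53) lower, with none lower at the same FPKM total and 2 lower at the same median. Of 4 biliary markers, Spp1 (4.11) and Krt19 (4.03) were higher and Epcam (-3) lower. Neutrophil markers had none called of 2 by limma, also unadjusted. The part of these cell types in the growth arrest gene results was not tested.

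For each gene, the 3 genes with the most similar pattern over the 10 libraries were found by the root mean square difference of mean-centred log2 FPKM among 10399 genes. The likeness is a description, and much of it is set by the group means. Foxp2 lay nearest to Gadd45g, 0.57 log2 units away, followed by Tpd52l1 at 0.58 and Id3, an inhibitor of bHLH factors, at 0.62. These distances include the spread between replicates, which for Gadd45g was 0.66 as the residual SD of log2 FPKM. Foxp2 stood at 6.18, 0.15 and 6.11 FPKM in NL, c-MYC and c-MYC/FOXO1AAA. The nearest to Ccng2 were Itpr1 (0.16), the calcium channel of the endoplasmic reticulum, Elk4 (0.21) and Wsb1 (0.25). Gadd45b was nearest to Faap24 (0.24), Arhgap19 (0.25) and Prim1 (0.26), of which Faap24 acts in DNA crosslink repair and Prim1 is the DNA primase. Prim1 stood at 2.68, 27.9 and 16.3 FPKM in NL, c-MYC and c-MYC/FOXO1AAA.

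Gadd45a was nearest to Fam111a (0.32), Lsp1 (0.33) and Btbd3 (0.34). Fam111a, a protease that acts at replication forks, stood at 4.31, 5.81 and 56.1 FPKM in the 3 groups. Among the genes nearest to Ccng1 were Hnrnpc (0.09) and Cct4 (0.1), abundant genes of RNA binding and protein folding. For Btg2 the nearest were Atp1b3 (0.19), Acot9 (0.21) and Tgfb1 (0.21), and for Klf6 they were C1qtnf6 (0.21), Prkaa1 (0.24) and Clstn3 (0.28). Tgfb1, the cytokine that drives fibrosis, stood at 5.06, 6.22 and 25.2 FPKM, and Prkaa1, a catalytic subunit of AMPK, at 3.31, 11.4 and 28.2 FPKM. Btg1 was nearest to Iws1, Adcy6 and Pcgf1, all at 0.16.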

How the data were processed

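Mouse liver RNA was sequenced in 10 libraries, grouped by their titles. The deposited table holds log2 FPKM, made by the authors after adding 2 reads, scaled by library size. The submitters' processing notes name GRCm38 and FastQC 0.11.7, and the aligner and counter are not given in the sources used here. From 17069 rows, 372 without symbol or values were left out. Whole reads and gene lengths were recovered from the values to within 0.01 reads, with a single solution for 94.53% of entries, and replicates within a group correlated at 0.9707 to 0.9839.

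Deposited log2 values were fitted with limma 3.58.1 (R 4.3.3, statmod 1.5.0), treat, trend and robust, over all 10 libraries, keeping genes that reached 1 FPKM in 3 or more libraries. The 2-sided test was against 1.5-fold. The script was tested on simulated data. Intervals are 95%. Depth limits low genes, chiefly Gadd45g in c-MYC.

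The 8 genes and all lists were chosen with earlier results of these data known. Named besides the 8 are the 3 most similar genes of each (FPKM of at least 5 in a group), the 2 called genes per list and direction with the largest change between the tumour groups, Foxo1 and Myc. Alb and Apoa1 are named as examples of their list. Where others are named, the text says so. One of the similar genes is not reported here. Gene positions are from GENCODE M21, promoters from RefSeq. Alternatives covered the pseudocount, filter, scaling, threshold, variance model, groups fitted, a replicate block and each library left out.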

Additional observations from a re-analysis of the deposited data

How the results depend on the processing

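The growth arrest gene counts kept to within 1.5 times in all alternatives but rescaling to the same FPKM total. That gave 6 higher and 1 lower in c-MYC versus NL (3 and 2 as reported), where it moved the median of all genes from 0.08 to 1.01. Gadd45a (1.47, adjusted p = 0.00409), Btg1 (1.18, 0.00495) and Btg2 (1.44, 0.000865) were then called, and Ccng2 lost its call (-0.8, 0.137). In c-MYC/FOXO1AAA versus NL, with a median of 1.31, Ccng2 (1.78, adjusted p = 1.18e-05) and Btg1 (1.38, 0.000694) were added. Ccng2 was also called there with quantile normalization (1.18, 0.0023) and without a fold threshold (0.00123). At a 2-fold threshold Ccng1 lost both calls (adjusted p = 0.0826 and 0.0795). Leaving out any library changed no call of the 8 genes.

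Signs changed only for differences near 0. Ccng1 between the tumour groups was 0.16 with the same FPKM total, 0.14 with quantile normalization and from -0.06 to 0.06 with single libraries left out, above 0 without c-MYC replicate 1 or c-MYC/FOXO1AAA replicate 2. Btg1 there was -0.06 with the same median, and from -0.06 to 0.16 with single libraries left out, below 0 without c-MYC replicate 1, c-MYC replicate 3 or c-MYC/FOXO1AAA replicate 3. Gadd45g in c-MYC/FOXO1AAA versus NL was -0.01 with the same median, and from -0.21 to 0.4 with single libraries left out, below 0 without NL replicate 1, NL replicate 4 or c-MYC/FOXO1AAA replicate 2. With the replicate block it was -0.06. Same-numbered samples did not deviate together (r from -0.04 to 0.03), so the numbers share only a name, and the block changed no call of the 8 genes and gave 2167 higher and 1685 lower of all genes between the tumour groups. All 130 alternative values of the ratios kept their direction.

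Over all genes, calls as reported were 3435 higher and 3305 lower (c-MYC versus NL), 2229 and 1787 (c-MYC/FOXO1AAA versus c-MYC) and 4371 and 3728 (c-MYC/FOXO1AAA versus NL). The same FPKM total gave 7061 and 1895, 2594 and 1482, and 8129 and 2099. A mean FPKM of at least 5 left 989 and 2500 higher in the last 2 comparisons. Without a fold threshold there were 5487 higher in the first and 3984 and 3704 in the second. A 2-fold threshold gave 2192 higher in the first and 1102 lower in the second. Without c-MYC/FOXO1AAA replicate 1 or 2, 1376 or 1367 were higher in the second. Among the lists, immediate early genes stayed at 7 higher and none lower between the tumour groups under 3 other scalings, whereas KLF relatives ranged from 1 to 4 higher and 1 to 2 lower. The CCR4-NOT list with Pabpc1 and the CDK inhibitors went from 5 and 4 to 10 and 7 higher in c-MYC versus NL with the same FPKM total. BTG/TOB relatives had 1 lower with the same median or quantile normalization.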
